A study of Mus musculus with 6 samples.

Results

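The subunits of the ionotropic and metabotropic receptors for glutamate and GABA were examined in RNA of mouse dentate tissue with 0, 1 or 2 floxed alleles of Sox11. Members were the genes whose symbol belongs to the AMPA (Gria), kainate (Grik), NMDA (Grin), delta (Grid), metabotropic glutamate (Grm), GABA-A (Gabr) and GABA-B (Gabbr) families, 47 of the 35274 genes in the table. The tissue was labelled dentate neuroepithelium of embryonic day 14, the wall of the hippocampal primordium that gives rise to the dentate gyrus. Wild type (WT) mice were compared with SOX11f/+ mice (HTZ, called haplodeficient in the labels) and SOX11f/f mice (HOMO, called homodeficient), with 2 libraries per genotype. The labels name no Cre driver, strain or litter. They do not say whether each library stands for an embryo of its own, so the p-values cover the spread among these libraries only, and that spread may be technical.

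Values were TPM, a transcript abundance scaled for transcript length and library size, so levels can be set beside each other between genes. Read depth is unknown, since a TPM table does not hold it. Sox11 itself stood at 192 and 130 TPM in the WT pair, 56.1 and 50.1 in the HTZ pair and 5.23 and 5.06 in the HOMO pair, in the order of the labelled genotypes. Markers of the hippocampal and dentate primordium such as Prox1 and Neurod1 were present in all 6 libraries. So were genes of mature excitatory neurons and astrocytes, among them Camk2a at 121 to 496 TPM and Gfap at 268 to 576 TPM, which stand against the labelled stage. Ttr, the main product of choroid plexus, lay at 11259 TPM in heterozygous replicate 1 and 6421 in homozygous replicate 1, at 184 in homozygous replicate 2, and at 2.04 to 4.44 in the other 3 libraries.

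Glutamate opens 3 classes of ion channel built as tetramers. AMPA receptors carry fast excitation, kainate receptors adjust transmitter release and excitability, and NMDA receptors pair an obligatory GluN1 subunit with GluN2 or GluN3 subunits and admit calcium. GABA-A receptors are pentameric chloride channels, most often of alpha, beta and gamma subunits, while GABA-B and metabotropic glutamate receptors signal through G proteins. During development of the forebrain the NMDA receptor moves from GluN2B, GluN2D and GluN3A towards GluN2A. In many forebrain regions the GABA-A receptor moves from alpha2, alpha3 and alpha5 towards other alpha subunits. Those of dentate granule cells include alpha4, with delta.

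Stretches of DNA around the transcription starts are shown for 4 members on which the results below turn. Grik3 had the lowest estimated difference from wild type, Gabra2 differed most between libraries of 1 genotype among members above 5 TPM, and Gabrg1 and Gabra4 carry a match to a Sox core motif. Each runs 5′ to 3′ on the gene's strand from 250 bases before the start to 50 after it, taken from RefSeq on GRCm38.p6. The windows are chr4:125490446-125490745 (plus strand) for Grik3, chr5:71095800-71096099 (minus strand) for Gabra2, chr5:70842568-70842867 (minus strand) for Gabrg1 and chr5:71658259-71658558 (minus strand) for Gabra4. Capitals mark the Sox core, AACAAT or its reverse complement.
Grik3: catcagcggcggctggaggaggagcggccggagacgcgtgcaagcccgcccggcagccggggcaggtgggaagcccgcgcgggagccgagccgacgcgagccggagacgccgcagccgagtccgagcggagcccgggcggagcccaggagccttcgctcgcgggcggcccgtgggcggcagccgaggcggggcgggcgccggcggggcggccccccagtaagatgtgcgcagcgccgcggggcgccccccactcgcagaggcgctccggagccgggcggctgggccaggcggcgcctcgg
Gabra2: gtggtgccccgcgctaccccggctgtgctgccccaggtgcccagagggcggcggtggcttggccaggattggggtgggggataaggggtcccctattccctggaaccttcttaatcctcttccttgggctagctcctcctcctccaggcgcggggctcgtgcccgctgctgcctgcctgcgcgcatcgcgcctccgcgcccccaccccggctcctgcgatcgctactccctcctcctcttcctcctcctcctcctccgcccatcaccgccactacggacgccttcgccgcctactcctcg
Gabrg1: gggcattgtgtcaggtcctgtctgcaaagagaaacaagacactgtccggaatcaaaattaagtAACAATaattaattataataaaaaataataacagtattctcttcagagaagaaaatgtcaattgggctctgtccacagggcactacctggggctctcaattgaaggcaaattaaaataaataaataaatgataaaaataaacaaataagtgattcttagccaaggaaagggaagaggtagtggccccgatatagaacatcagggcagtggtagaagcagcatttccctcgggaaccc
Gabra4: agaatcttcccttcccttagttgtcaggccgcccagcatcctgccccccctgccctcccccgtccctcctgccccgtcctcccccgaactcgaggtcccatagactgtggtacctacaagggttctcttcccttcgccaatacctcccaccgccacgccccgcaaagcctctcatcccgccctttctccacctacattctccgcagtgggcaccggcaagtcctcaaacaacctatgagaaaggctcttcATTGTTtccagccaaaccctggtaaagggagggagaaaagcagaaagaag
The windows of Grik3 and Gabra2 hold 82.0% and 70.0% G and C, against 38.3% for Gabrg1 and 58.7% for Gabra4. The core AACAAT was found on either strand in 10.7% of all 32851 promoter windows and in 5 of 39 windows of 32 matched members, those of Gabra3, Gabra4, Gabrb1, Gabrg1 and Grm8. In Gabrg1 it begins 187 bases before the start and in Gabra4 at the start itself. A longer Sox motif, AACAAAG, was in 5.85% of all windows and, among members, in that of Grm6 alone. TCAGCACC, the left part of the RE1 element bound by the neuronal silencer REST, was in 1.65% of all windows and in that of Grm2 alone among members. These are matches of letters within 300 bases and say nothing of binding.

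**Figure D1:**
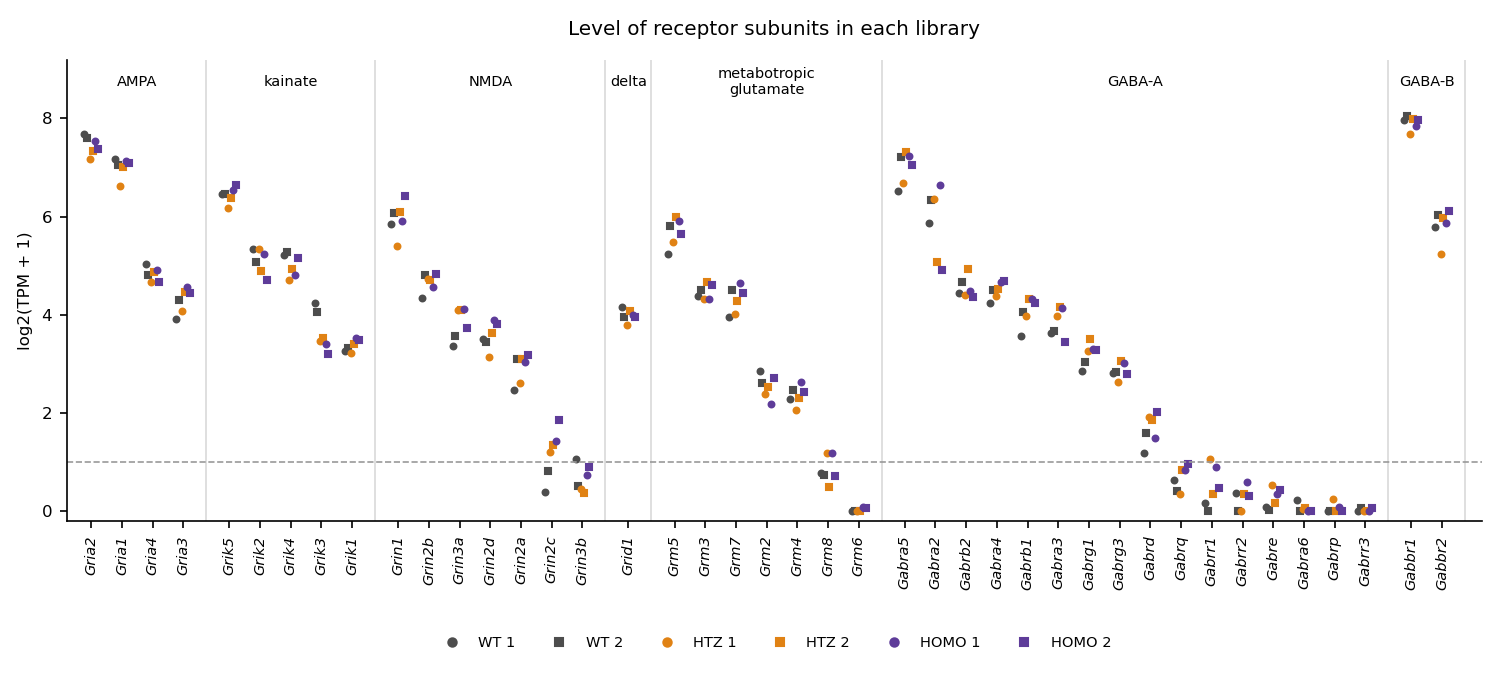
Level of 42 receptor subunits in the 6 libraries, as log2(TPM + 1), ordered by mean TPM within each class (colour: genotype; circle: replicate 1; square: replicate 2; the dashed line is 1 TPM). Gabbr1, Gria2, Gabra5 and Gria1 lie highest, and 10 subunits have a mean below 1 TPM.

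Excitatory channels were led by AMPA subunits, which summed to 281 to 393 TPM per library, beside 155 to 189 for kainate and 97.9 to 149 for NMDA subunits. Gria2, which makes AMPA channels impermeable to calcium, held 47.5 to 52.0% of the summed AMPA TPM, followed by Gria1 with 34.6 to 39.1%, and this order was seen in all 6 libraries. Gria4 (24.3 to 31.9 TPM) and Gria3 (14.1 to 22.6 TPM) were lower. In the kainate family, Grik5, a subunit that needs a partner to form channels, held 45.9 to 55.6%, and Grik2 and Grik4 stood next at 25.2 to 39.5 and 25.2 to 37.7 TPM, ranges that overlap. Grin1, the obligatory NMDA subunit, stood at 56.7 and 66.6 TPM in the WT pair, 41.5 and 67.6 in the HTZ pair and 59.3 and 84.7 in the HOMO pair. The genotypes overlapped for Grin1. Of the delta receptors, which act as synaptic organisers, Grid1 lay at 12.8 to 16.8 TPM.

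GABA-A subunits summed to 370 to 509 TPM per library. Gabra5 held 43.2 to 64.2% of the summed alpha TPM. Gabbr1, the ligand-binding subunit of the GABA-B receptor, was the most abundant member of all, at 204 to 263 TPM, with its partner Gabbr2 at 36.6 to 68.0 TPM. Among metabotropic glutamate receptors, Grm5, which couples to phospholipase C, stood at 36.5 and 55.4 TPM in the WT pair, 43.5 and 62.7 in the HTZ pair and 59.2 and 49.2 in the HOMO pair. Other receptors of this class above 5 TPM included Grm3, a glial and neuronal receptor (19.0 to 24.3 TPM), and Grm7, a presynaptic one (14.5 to 24.1 TPM).

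The 10 members with a mean below 1 TPM were Grin3b, Grm6, Grm8, Gabra6, Gabre, Gabrp, Gabrq, Gabrr1, Gabrr2 and Gabrr3, and they were not tested. Their highest value in any library was 1.28 TPM, for Grm8 in homozygous replicate 1. Grm6, the receptor of retinal ON bipolar cells, was listed at 0 in 4 libraries, and Gabra6, the alpha subunit of cerebellar granule cells, did not exceed 0.180 TPM. Grin3b shares exon sequence on the opposite strand with Tmem259, and Gabra4 with Gabrb1. Whether counting used strand is not given in the sources used here, so the levels of these 3 subunits are uncertain.

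**Figure D2:**
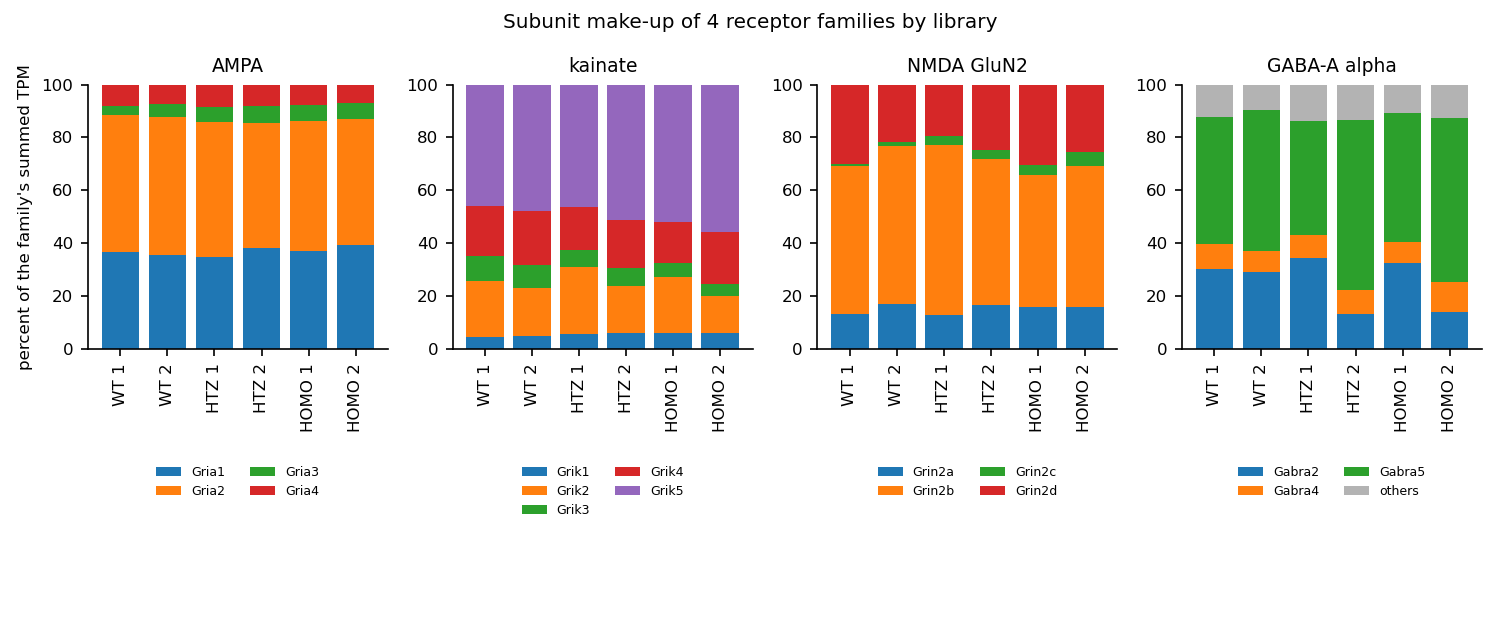
Make-up of 4 receptor families in each library, as the percentage of the family's summed TPM (stacked bars; each colour is 1 subunit). Gria2 and Gria1 make up most of the AMPA bar and Grin2b 49.97 to 64.2% of the GluN2 bar, with the remaining alpha subunits in grey, while the part of Gabra2 is 13.3% and 13.7% in heterozygous and homozygous replicate 2 and 29.0 to 34.5% in the other 4 libraries.

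Early and mature subunits were set beside each other in each library. The early group of 7 included Grin2b, Grin2d, Grin3a, Gabra2, Gabra3 and Gabra5, and the mature group of 7 included Grin2a, Grin2c, Gabra4, Gabra6, Gabrb2 and Gabrd. Early subunits summed to 276 to 408 TPM per library and mature ones to 57.0 to 79.8 TPM. The mature share of both was 17.1 and 16.0% in the WT pair, 17.7 and 18.8% in the HTZ pair and 15.2 and 19.4% in the HOMO pair, with the HTZ pair above wild type and the HOMO pair on either side of both. With Gabra2 left out of the early sum, an alternative chosen after seeing the data, the shares were 20.7 and 19.5%, 22.5 and 20.3%, and 19.1 and 20.9% in the same order, and all 3 genotypes overlapped. Gabra5, at 90.6 to 158 TPM, stayed in the early sum each time, so these shares depend on counting it as early.

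Grin2b, the early GluN2 subunit, stood at 19.2 and 27.3 TPM in the WT pair, 25.6 and 25.0 in the HTZ pair and 22.7 and 27.3 in the HOMO pair. Its mature counterpart Grin2a stood at 4.56 and 7.64, 5.11 and 7.61, and 7.19 and 8.13 TPM in the same order. For both genes each floxed genotype overlapped wild type. The TPM of Grin2a was thus 0.1995 to 0.316 times that of Grin2b, lowest in heterozygous replicate 1 and highest in homozygous replicate 1, and both HOMO libraries lay above both WT ones. The mean log2 ratio (of TPM + 1) differed from wild type by -0.07 in the HTZ pair and 0.20 in the HOMO pair, beside SD over 2 libraries of 0.11, 0.37 and 0.07 in the WT, HTZ and HOMO pairs. With a pair on each side, the smallest two-sided p of an exact permutation test is 0.333, so ratios are given without one. Grin2d, an early subunit kept by interneurons, was at 10.4 and 9.89 TPM in the WT pair, 7.82 and 11.3 in the HTZ pair and 13.9 and 13.1 in the HOMO pair, with both homozygous values above the rest.

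Gabra5, the extrasynaptic alpha subunit of hippocampal neurons, stood at 90.6 and 148 TPM in the WT pair, 101 and 158 in the HTZ pair and 150 and 132 in the HOMO pair, and the genotypes overlapped. Gabra3, an alpha subunit of immature cortex encoded on chromosome X, was at 11.4 and 11.7 TPM in the WT pair, 14.8 and 17.0 in the HTZ pair and 16.6 and 9.84 in the HOMO pair. Both heterozygous values of Gabra3 lay above wild type, while the homozygous ones lay on either side of it.

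Among mature GABA-A subunits, Gabra4, of extrasynaptic receptors in granule cells, was at 17.9 and 21.9 TPM in the WT pair, 19.8 and 22.0 in the HTZ pair and 24.6 and 24.9 in the HOMO pair, highest in both homozygous libraries. Gabrd, its delta partner, was low, at 1.27 and 2.01, 2.81 and 2.62, and 1.80 and 3.06 TPM in the same order. Gabrb2, a beta subunit of adult receptors, was at 20.9 and 24.5 TPM in the WT pair, 20.1 and 29.4 in the HTZ pair and 21.3 and 19.6 in the HOMO pair, with overlap throughout.

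**Figure D3:**
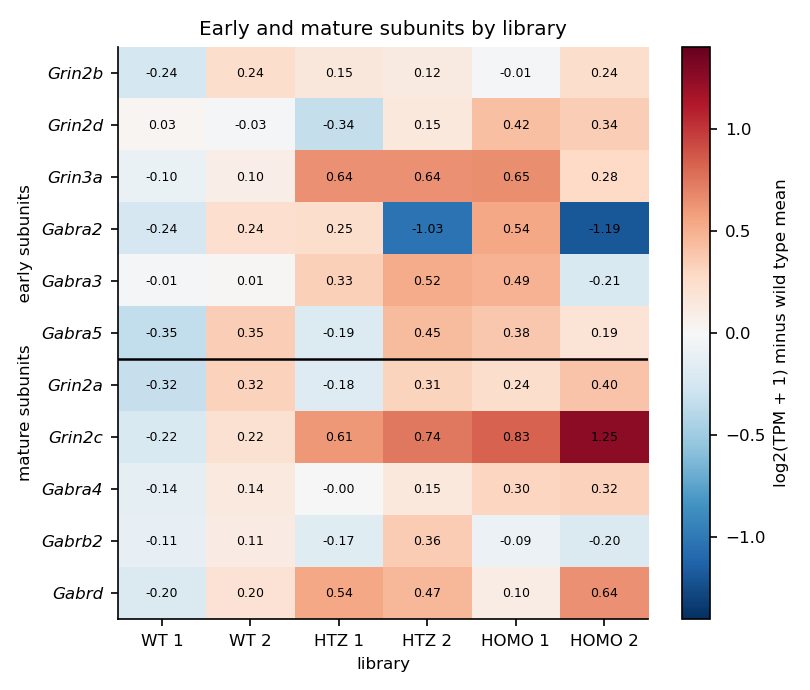
Early (upper 6) and mature (lower 5) subunits, as log2(TPM + 1) in each library minus the mean of the wild type libraries. Grin3a and Grin2c are above both wild type libraries in all 4 floxed ones, and Gabra2 is at -1.03 and -1.19 in heterozygous and homozygous replicate 2 and at 0.25 and 0.54 in their replicates 1.

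Single subunits were then compared between genotypes with limma on log2(TPM + 1), with p adjusted over the 14518 genes averaging 1 TPM or more. Of the 37 members tested, 0 passed an adjusted p of 0.05 in any of the 3 comparisons, where 0.0344% of all genes passed for heterozygous against wild type, 0.0413% for homozygous against wild type and 0.0138% for homozygous against heterozygous. Both comparisons with wild type share its 2 libraries, so their values are not separate evidence.

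In heterozygous against wild type libraries, 2 members stood higher and 3 lower at an unadjusted p under 0.05, beside 6.42% and 7.63% of all genes. The members were Grin3a and Gabrg1, higher, and Grik3, Gria2 and Grik4, lower. Without overlap between the genotypes, 6 members lay higher and 6 lower, beside 17.1% and 28.9% of all genes. The median log2 difference was -0.08 over the 37 members and -0.06 over all genes, 0.13 over the 7 early subunits and 0.21 over the 6 mature subunits tested. All 6 of these mature subunits and 4 of the 7 early ones had a difference above 0, as did 40.2% of all genes. The median of the early subunits was -0.10 without wild type replicate 1 and 0.38 without wild type replicate 2, and that of the mature ones 0.068 and 0.44. The mature median was also lower, at 0.085, among the subunits averaging 5 TPM or more, and at 0.098 with no filter.

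Homozygous against wild type, 2 members stood higher (Grin2c and Grin3a) and 1 lower (Grik3) at an unadjusted p under 0.05, beside 8.35% and 9.8% of all genes. Without overlap, 10 members lay higher and 4 lower, beside 23.6% and 30.7% of all genes. The median log2 difference was 0.12 over the 37 members and -0.04 over all genes. It was 0.14 over the early and 0.31 over the mature subunits, of which 6 of 7 and 5 of 6 had a difference above 0, as did 44.8% of all genes. Without wild type replicate 1 the medians were -0.035 and 0.13, and without wild type replicate 2 they were 0.35 and 0.51. Among the 6 tested NMDA subunits the homozygous difference ran from 0.12 to 1.04, with 3 overlapping wild type, and in heterozygous tissue 4 had a difference above 0 and 2 below it.

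**Figure D4:**
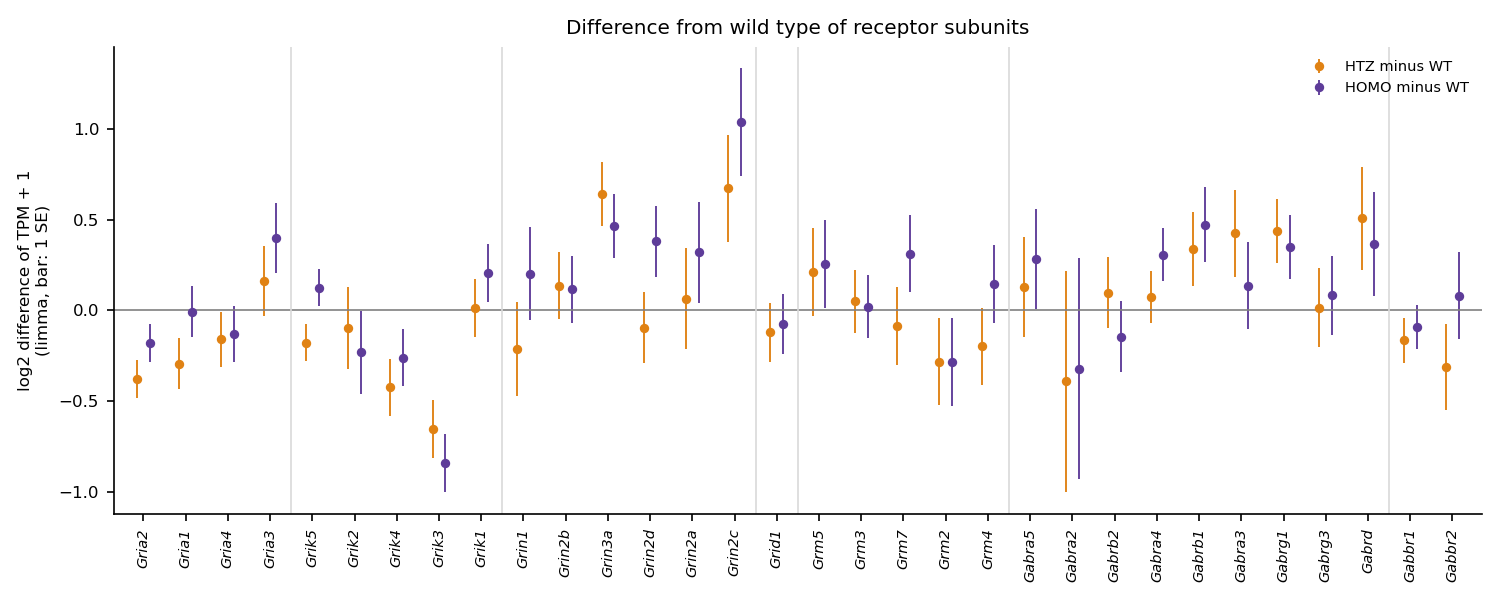
Difference from wild type of 32 tested subunits in heterozygous (orange) and homozygous (purple) libraries, on the log2(TPM + 1) scale, with bars of 1 SE from limma; grey lines separate the receptor classes. Grik3 lies lowest and Grin2c highest, and none passed an adjusted p of 0.05.

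Grik3 encodes GluK3, a kainate subunit of low glutamate affinity that is known at mossy fibre synapses. It stood at 17.8 and 15.6 TPM in the WT pair, 10.01 and 10.5 in the HTZ pair and 9.62 and 8.17 in the HOMO pair. All 4 floxed values lay below both wild type values, and both homozygous values below both heterozygous ones. The log2 difference from wild type was -0.65 (SE 0.16, limma adjusted p = 0.24) in the HTZ pair and -0.84 (SE 0.16, limma adjusted p = 0.091) in the HOMO pair, neither passing. Over the alternatives tried the homozygous value lay between -0.95 and -0.74 and its limma adjusted p between 0.057 and 0.47. The gene (ENSMUSG00000001985.9) lies on the plus strand of chromosome 4 from 125490700 to 125714173 on GRCm38. Its share of the summed kainate TPM was 9.42 and 8.57% in the WT pair, 6.47 and 6.54% in the HTZ pair and 5.47 and 4.62% in the HOMO pair. Summed TPM of 10 primordium and dentate genes was 1921 and 1378 in the WT pair and 912 to 1090 in the floxed libraries. None of the 10 was at 0 TPM, and 0 of 10 were above wild type on average in either comparison. Of all genes tested, 40.2% were above it in heterozygous and 44.8% in homozygous libraries. Calb2, Neurod1 and Dcx led the sum, at 454, 392 and 388 TPM in wild type replicate 1. Pax6 had log2 differences of -0.02 and -0.06. The part of this sum in the level of Grik3 was not tested. In whole tissue, fewer cells of a type and less RNA per cell cannot be told apart.

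Other members below wild type in all 4 floxed libraries were Gria2 and Grik4. Gria2 was at 203 and 192 TPM in the WT pair, 144 and 161 in the HTZ pair and 186 and 164 in the HOMO pair (heterozygous log2 difference -0.38, SE 0.10, limma adjusted p = 0.28; homozygous -0.18, SE 0.10, limma adjusted p = 0.40). The ratio of Gria2 to Gria1 was 1.42 and 1.46 in the WT pair, 1.48 and 1.25 in the HTZ pair and 1.34 and 1.22 in the HOMO pair. Gria1, the other main AMPA subunit, stood at 143 and 132 TPM in the WT pair, 97.3 and 129 in the HTZ pair and 139 and 135 in the HOMO pair. Grik4, a high-affinity kainate subunit enriched at mossy fibre synapses, was at 36.2 and 37.7 TPM in the WT pair, 25.2 and 29.5 in the HTZ pair and 26.9 and 34.9 in the HOMO pair. Its heterozygous log2 difference was -0.42 (SE 0.16, limma adjusted p = 0.33). All 4 floxed libraries lay below both wild type ones for 3 of the 37 members and for 20.97% of all genes tested.

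Grin3a encodes GluN3A, which lowers calcium entry and is typical of juvenile synapses. It stood at 9.32 and 10.8 TPM in the WT pair, 16.2 and 16.2 in the HTZ pair and 16.3 and 12.4 in the HOMO pair, with all floxed values above wild type. Its log2 difference was 0.64 (SE 0.18, limma adjusted p = 0.28) in the HTZ pair and 0.46 (SE 0.18, limma adjusted p = 0.24) in the HOMO pair. Grin2c, a GluN2 subunit of cerebellum and of astrocytes, was low throughout, at 0.310 and 0.770 TPM in the WT pair, 1.32 and 1.54 in the HTZ pair and 1.70 and 2.62 in the HOMO pair. Its libraries lay in order of the number of floxed alleles without overlap, but the difference did not pass (homozygous log2 difference 1.04, SE 0.30, limma adjusted p = 0.16). With a pseudocount of 0.1 that difference was 1.89, since adding 1 TPM compresses so low a level. Leaving out the 2 libraries highest in Ttr, it was 1.25 and passed (limma adjusted p = 0.032), with 1 library left in each floxed genotype. Over its alternatives the limma adjusted p ran from 0.032 to 0.55.

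Gabrg1, a gamma subunit also known in glia, was at 6.25 and 7.19 TPM in the WT pair, 8.58 and 10.4 in the HTZ pair and 8.92 and 8.74 in the HOMO pair (heterozygous log2 difference 0.44, SE 0.18, limma adjusted p = 0.34). With Grin2c and Grin3a it was 1 of 4 members above both wild type libraries in all 4 floxed ones, as were 13.3% of all genes tested. Beside these, the TPM of 8 astrocyte genes was summed. Sums were 1605 and 1837 in the WT pair, 2922 and 2616 in the HTZ pair and 3022 and 3541 in the HOMO pair. Over the 8 genes the median log2 difference from wild type was 0.47 in heterozygous and 0.53 in homozygous libraries. It was lowest for Slc1a2, at 0.02 and 0.26. Apoe alone made up most of each sum. It stood at 830 and 1107, 2000 and 1666, and 2115 and 2285 TPM in the WT, HTZ and HOMO pairs. For 8 microglia genes the sums were 168 and 197, 409 and 269, and 336 and 352 TPM in the same order. All 8 genes of each list had a difference above 0 in both comparisons with wild type. For 9 genes of the oligodendrocyte lineage the sums were 170 and 257, 307 and 313, and 288 and 404 TPM, and 5 and 8 of the 9 had a difference above 0 in heterozygous and homozygous tissue. The part of any of these cell types in these subunits was not tested.

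**Figure D5:**
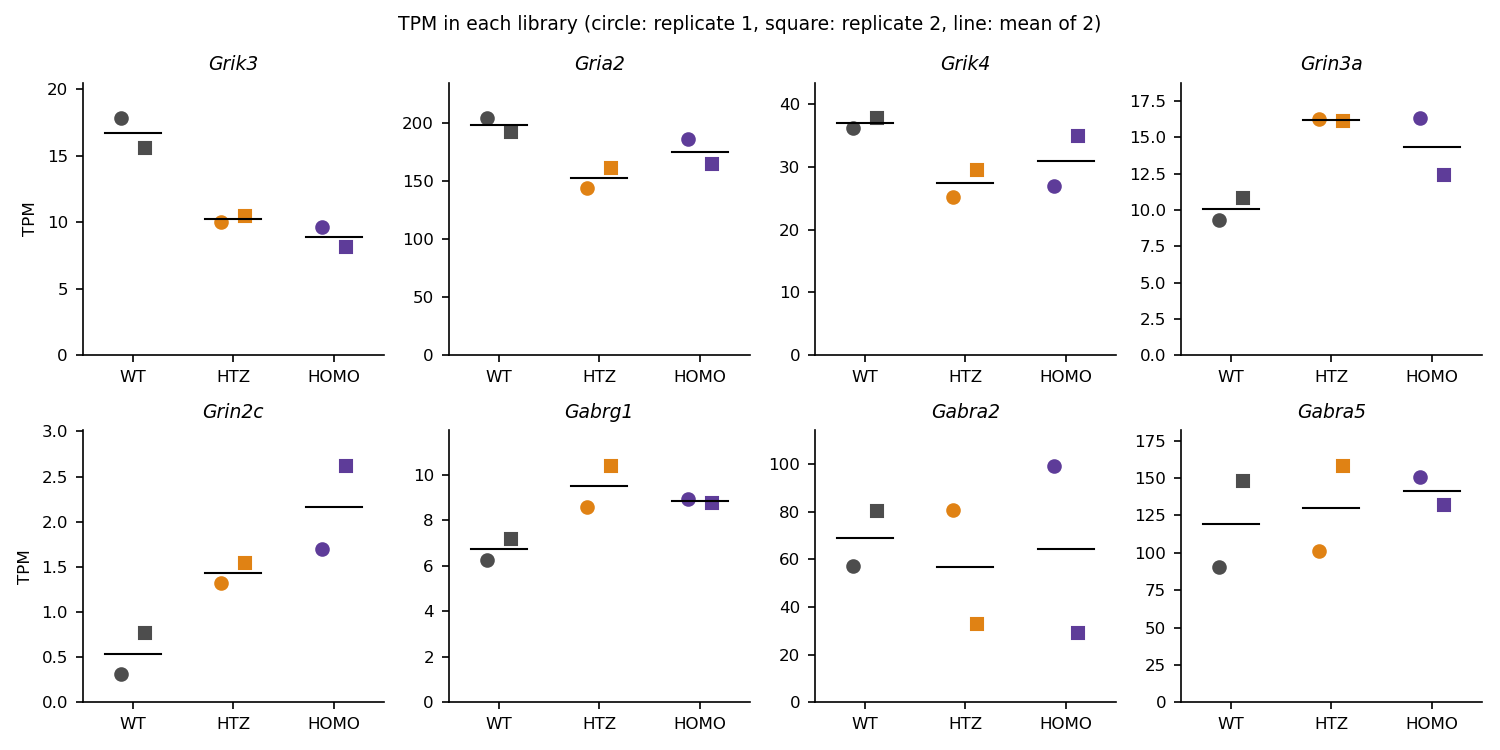
TPM of 8 subunits in each library by genotype (circle: replicate 1; square: replicate 2; line: mean of 2 libraries). Grik3 is at 17.8 and 15.6 TPM in the WT and 9.62 and 8.17 TPM in the HOMO pair with no overlap, while Gabra2 differs more within the HTZ and HOMO pairs than between genotypes.

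Gabra2 varied within genotypes more than between them. It stood at 57.4 and 80.3 TPM in the WT pair, 80.7 and 32.8 in the HTZ pair and 99.3 and 29.3 in the HOMO pair, a 3.39-fold range. Heterozygous replicate 2 and homozygous replicate 2 were low and the other 4 libraries high, so the genotypes overlapped and the log2 differences from wild type, -0.39 (SE 0.61) and -0.32 (SE 0.61), did not pass (limma adjusted p = 0.78 and 0.80). Without homozygous replicate 2 the homozygous difference was 0.54, and leaving out the 2 libraries highest in Ttr it was -1.19 (limma adjusted p = 0.020), within a range of 0.020 to 0.96 over the alternatives. This left out both floxed libraries in which Gabra2 was high.

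Gabra2 is the second of 4 subunit genes in a cluster on chromosome 5 from 70751047 to 72149037, with Gabrg1, Gabra4 and Gabrb1, each within 1 Mb of the next. The neighbours did not share its split. Gabrg1 was at 10.4 and 8.74 TPM in heterozygous and homozygous replicate 2, Gabra4 at 22.0 and 24.9 and Gabrb1 at 19.1 and 18.0 TPM, each above both WT values of its gene. Gabrb1, a beta subunit, was at 10.96 and 15.6 TPM in the WT pair, 14.7 and 19.1 in the HTZ pair and 19.1 and 18.0 in the HOMO pair (homozygous log2 difference 0.47, SE 0.21, limma adjusted p = 0.29). For Gabra4 the homozygous difference was 0.31 (SE 0.14, limma adjusted p = 0.31).

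Gabrg3, a minor gamma subunit, stood at 5.17 to 7.36 TPM. In a cluster on chromosome X, from 72255999 to 72842602, Gabra3 alone had a mean above 1 TPM, beside Gabre and Gabrq. The rho subunit genes Gabrr1 and Gabrr2 lie together on chromosome 4 and were at most 1.10 TPM.

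Homozygous against heterozygous libraries, 2 members stood higher at an unadjusted p under 0.05 (Grik5 and Grin2d) and 0 lower, beside 1.14% and 0.902% of all genes. Grik5 was at 86.8 and 87.2 TPM in the WT pair, 71.7 and 82.2 in the HTZ pair and 91.8 and 98.4 in the HOMO pair, lowest in heterozygous tissue (log2 difference 0.30, SE 0.10, limma adjusted p = 0.9999). Grin2d differed by 0.48 (SE 0.20, limma adjusted p = 0.9999) and Gria1 by 0.28 (SE 0.14, limma adjusted p = 0.9999). Without overlap, 10 members lay higher and 1, Grik3, lower, beside 15.3% and 13.7% of all genes. The median log2 difference was 0.07 over the 37 members and 0.01 over all genes, and 25 members had a difference above 0, as did 54.1% of all genes.

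Libraries within a genotype differed together for many subunits. Wild type replicate 1 and heterozygous replicate 1 were the lowest 2 of the 6 libraries for 13 of the 37 members, or 35.1%, and for 8.47% of all genes tested, an order noticed after the values were seen. They included Gabbr2, Gabra4, Gabra5, Gabrb1, Gria3, Grik1, Grin1, Grin2a, Grm4, Grm5 and Grm7. Grik1, a kainate subunit of interneurons, stood at 8.67 and 9.08 TPM in the WT pair, 8.33 and 9.66 in the HTZ pair and 10.5 and 10.2 in the HOMO pair. The summed TPM of 8 genes of mature excitatory neurons was 1772 and 2412 in the WT pair, 1667 and 2539 in the HTZ pair and 2324 and 2926 in the HOMO pair, with the same 2 libraries lowest. Of the 8 genes, 4 had a difference above 0 in the HTZ pair and 6 in homozygous tissue against wild type, beside 40.2% and 44.8% of all genes. Rbfox3, also of the 8, was below both wild type libraries in all 4 floxed ones. Its log2 differences were -0.48 and -0.34 (limma adjusted p = 0.23 and 0.21). The part of the 8 genes in the subunit levels was not tested. For 10 genes of GABAergic neurons the sums were 470 and 529, 518 and 605, and 546 and 373 TPM in the same order.

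Partners of the receptors were counted in the same fit. Of 19 auxiliary subunits, 0 passed in any comparison, and at an unadjusted p under 0.05 those lower than wild type numbered 2 in the HTZ and 3 in the HOMO pair, with 0 higher, beside 7.63% and 9.8% of all genes lower and 6.42% and 8.35% higher. Without overlap, 2 lay higher and 8 lower in heterozygous against wild type libraries, beside 17.1% and 28.9% of all genes. Homozygous against heterozygous gave 1 higher and 3 lower, beside 15.3% and 13.7%. In homozygous against wild type libraries, 6 lay higher and 7 lower without overlap, beside 23.6% and 30.7% of all genes. The 3 with the smallest p there are described. Cacng4, a TARP that carries AMPA receptors to the surface, stood at 106 and 104 TPM in the WT pair, 90.1 and 88.0 in the HTZ pair and 79.4 and 78.0 in the HOMO pair (homozygous log2 difference -0.41, SE 0.08, limma adjusted p = 0.10). Neto2, an auxiliary subunit of kainate receptors, was at 60.8 and 62.9, 49.9 and 52.1, and 47.4 and 39.0 TPM (homozygous -0.51, SE 0.12, limma adjusted p = 0.12). Gsg1l, which slows recovery of AMPA receptors, was at 23.4 and 11.5 TPM in the WT pair, 10.2 and 13.3 in the HTZ pair and 7.83 and 7.08 in the HOMO pair. Its heterozygous libraries overlapped wild type, and the WT pair itself lay far apart (homozygous log2 difference -1.04, SE 0.32, limma adjusted p = 0.17).

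Of 20 scaffold genes, 0 passed, and in homozygous against wild type libraries 2 were higher and 1 lower at an unadjusted p under 0.05, with 0 in either direction for heterozygous against wild type. The homozygous counts stand beside 8.35% and 9.8% of all genes. Dlg4, the PSD-95 scaffold of excitatory synapses, was at 155 and 187 TPM in the WT pair, 180 and 226 in the HTZ pair and 242 and 247 in the HOMO pair (homozygous log2 difference 0.52, SE 0.14, limma adjusted p = 0.15). Grip2, which binds AMPA receptor tails, stood lower (-0.85, SE 0.25, limma adjusted p = 0.17). Of 15 genes of transmitter synthesis and transport, 0 passed. At an unadjusted p under 0.05, 1 was higher and 1 lower in heterozygous and 2 higher and 0 lower in homozygous against wild type libraries, where all genes gave 6.42% and 7.63%, and 8.35% and 9.8%. Glul, the glutamine synthetase of astrocytes, was at 188 and 194 TPM in the WT pair, 324 and 252 in the HTZ pair and 246 and 265 in the HOMO pair (heterozygous log2 difference 0.58, SE 0.13, limma adjusted p = 0.22). Slc17a7, the vesicular glutamate transporter of cortical neurons, was at 79.8 and 190 TPM in the WT pair, 104 and 233 in the HTZ pair and 240 and 393 in the HOMO pair (homozygous log2 difference 1.31, SE 0.51, limma adjusted p = 0.25).

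Chloride transporters set whether GABA excites or inhibits, Slc12a2 (NKCC1) loading young neurons with chloride and Slc12a5 (KCC2) extruding it from mature ones. Slc12a2 stood at 25.0 and 21.1 TPM in the WT pair, 29.7 and 17.9 in the HTZ pair and 25.6 and 21.9 in the HOMO pair. Slc12a5 was at 21.4 and 37.1, 25.1 and 39.0, and 43.6 and 46.4 TPM in the same order, highest in both homozygous libraries (log2 difference from wild type 0.65, SE 0.29, limma adjusted p = 0.29). The ratio of Slc12a5 to Slc12a2 was 0.858 and 1.76 in the WT pair, 0.846 and 2.17 in the HTZ pair and 1.71 and 2.12 in the HOMO pair. It was below 1 in wild type replicate 1 and heterozygous replicate 1, the libraries with the lowest sums of mature neuron genes.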

How the data were processed

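Poly(A) RNA of 6 libraries was sequenced in pairs of reads, per the labels. The authors deposited a single table of TPM, and every library in it sums to 1000000. TopHat 2.0.11 and Cufflinks 2.2.1 are named with mm10 and a RefSeq annotation, per the labels' design text. The submitters' processing notes name FastQC and RSEM with mm10 and GRCm38, and no versions. How reads that match several genes were handled is not given in the sources used here. Read depth is unknown, so no counting interval was computed. Cacng7 and Cacng8 are each listed under 2 identifiers with the same values and were counted once.

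Members were taken by symbol and matched to GENCODE M21 on GRCm38 by Ensembl identifier (47 of 47). The 14518 genes averaging 1 TPM or more, 37 of them members, entered limma 3.58.1 in R 4.3.3 as log2(TPM + 1), which understates changes of low genes. The fit used a term per genotype, eBayes with trend, 3 residual degrees of freedom before moderation and Benjamini-Hochberg adjustment over all genes tested at 0.05. Limma adjusted p and SE come from this fit unless an alternative or a range over alternatives is named with them. Values without a p are given as descriptions. Left-out libraries kept the same genes. Alternatives were another pseudocount, other filters, TMM factors (a trimmed mean of log ratios), a replicate block, no trend, 2 genotypes only and left-out libraries. RefSeq promoter windows matched 32 members by symbol, and matches to motifs were searched on both strands. Members and gene lists were chosen with earlier results of these data known, so counts over them are descriptions. Named by rule were early and mature subunits, abundant members of each class, and for each comparison up to 3 members in each direction with the smallest unadjusted p among those above 5 TPM without overlap. The marker lists for endothelium, cerebellar granule neurons and thalamus summed to 127 to 255, 219 to 285 and 87.9 to 126 TPM per library, and that for choroid plexus to 4.78 to 11617 TPM. Some members and partner genes are counted in totals and not reported here by name.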

Additional observations from a re-analysis of the deposited data

How the results depend on the processing

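With 2 libraries per genotype and no read depth, a subunit that misses the threshold is not shown to be unchanged. Receptor subunits called stayed at 0 in the 3 comparisons under the alternatives tried, except that homozygous against wild type gave 2 (Gabra2 lower, Grin2c higher) without the 2 libraries highest in Ttr. In fits that leave 1 library in a genotype, it is assumed to vary like the others. Counts over all genes moved more. For heterozygous against wild type, the 5 genes became 49 (pseudocount 0.1), 1 (no filter) and 152 (leaving out the 2 libraries highest in Ttr), and 3 to 397 when 1 library was left out, with 397 without heterozygous replicate 2. For homozygous against wild type, 6 became 149, 3 and 491 under the same 3 settings, 393 when only these 2 genotypes were fitted, and 3 to 397 when 1 library was left out, with 391 and 397 without heterozygous replicate 1 and 2. For homozygous against heterozygous, 2 became 1 with no filter or with eBayes without trend, 12 without the 2 libraries highest in Ttr, and 1 to 5 when 1 library was left out.

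The median of early subunits ran from -0.10 to 0.38 for heterozygous against wild type, from -0.035 to 0.42 for homozygous against wild type and from -0.037 to 0.25 for homozygous against heterozygous when 1 library was left out, so its sign depends on single libraries. For homozygous against heterozygous it was 0.069 in the fit described above and -0.16 without the 2 libraries highest in Ttr. The median of mature subunits ran from 0.068 to 0.44 in heterozygous and from 0.13 to 0.51 in homozygous libraries against wild type when 1 library was left out. For homozygous against heterozygous the mature median was 0.097 in the fit described above and 0.0047 to 0.19 when 1 library was left out. It was -0.042 with no filter, where Gabra6 enters. The difference of Gabra2 turned to 0.25 without heterozygous replicate 2 (heterozygous against wild type), to 0.54 without homozygous replicate 2 (homozygous against wild type), and, for homozygous against heterozygous (0.07), to -0.16 without the 2 libraries highest in Ttr, -0.57 without heterozygous replicate 2 and -0.79 without homozygous replicate 1. When 1 library was left out it ran from -1.03 to 0.25, from -1.19 to 0.54 and from -0.79 to 0.93 in the 3 comparisons. The cause was not tested.

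Libraries were not treated as paired by replicate number, since nothing in the labels ties them and only 2 of 3 correlations of deviations from genotype means across genes were above 0.1 (0.21, -0.09 and 0.35). A structure shared by number is not excluded by this. With the replicate block, 9 genes were called for heterozygous and 283 for homozygous against wild type, and 0 receptor subunits. TMM rescaling moved the median of all genes from -0.06 to 0.002 for heterozygous and from -0.04 to 0.01 for homozygous against wild type.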
